A study of Schizosaccharomyces pombe with 6 samples.

Results

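The transcriptome of wild-type fission yeast (Schizosaccharomyces pombe) was described from the 3 wild-type libraries of a series of 6. All 3 come from strain EHB7, which is h+ in mating type and carries ade6-210, leu1-32 and ura4-D18 together with otr1R:ade6+, a copy of ade6+ inserted in the outer repeats of a centromere. Cultures were grown to log phase at 32 °C in the rich medium YES, and polyadenylated RNA was selected from total RNA before sequencing. The 3 other libraries, from cpn1 deletion cells, were not used. The wild-type columns hold 7268 features, of which 6140 had a count in at least 1 library. Counts assigned to features came to 26461217, 31213268 and 32916622 in replicates 1, 2 and 3. Levels are CPM, counts scaled to a library total of 1000000, in which a longer transcript gives more counts. Ranks and shares of counts are by CPM, and levels are compared between genes as CPM per kb of exon sequence. Errors are standard deviations over the 3 libraries (n = 3) unless stated otherwise.

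Fission yeast growing exponentially in glucose-rich medium ferments sugar even with oxygen present, and makes ribosomes at a high rate. A large part of its messenger RNA is therefore known to encode ribosomal proteins, translation factors and glycolytic enzymes. Genes for mating and meiosis are known to be kept low until nitrogen runs out, through transcription factors such as Ste11 and through removal of meiotic transcripts in growing cells. The data below give the level of each of these programmes in the same 3 cultures.

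The genes named in the genotype were checked first. No count was assigned to ura4 (orotidine 5'-phosphate decarboxylase), which ura4-D18 deletes, in any library. With 3 counts of the summed total as the limit that a count of 0 allows, its level was at most 0.0331 CPM, which covers counting error only. In all, 23 protein-coding genes without overlap on the opposite strand had no count, ura4 among them, so the 0 alone does not show the deletion. The leu1 gene (3-isopropylmalate dehydrogenase), a mutant allele of which is present, had 954, 917 and 940 CPM in replicates 1, 2 and 3. The ade6 gene (phosphoribosylaminoimidazole carboxylase) had 340, 349 and 335 CPM, in which the mutant gene and the centromeric copy cannot be told apart. The caprin gene cpn1, which is intact in these cells, had 285, 288 and 274 CPM, a mean of 283 ± 7.13 CPM and rank 682 of all features.

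For mating type, the genes of P cells, the h+ type, were set beside those of M cells. The P-factor pheromone gene map2 had 74.9, 78.3 and 76.1 CPM per kb in replicates 1, 2 and 3, whereas the M-factor precursor genes mfm1 and mfm2 averaged 3.82 ± 0.321 and 4.45 ± 0.822 CPM per kb. The third M-factor gene, mfm3, had no count and lies wholly under features on the opposite strand. Other M-cell genes were not as low. The gene of the P-factor receptor, mam2, averaged 34.0 ± 1.91 CPM per kb, above map3, which encodes the M-factor receptor of P cells, at 8.08 ± 0.713 CPM per kb. Features on the opposite strand cover 85.0% of map3 and none of mam2.

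Nearly all counts fell on identifiers of the protein-coding type. Gene identifiers, which are all identifiers outside the RNA classes, took 97.8%, 98.3% and 98.3% of the counts in replicates 1, 2 and 3, through 5159 features. Ribosomal RNA features (SPRRNA, 49 features) took 1.13 ± 0.259%, and the 1535 features of the non-coding class (SPNCRNA) took 0.725%, 0.723% and 0.690%. The 53 small nucleolar RNAs took 0.00673 ± 0.000199%, the 36 mitochondrial features 0.000771 ± 0.000395% and the 7 small nuclear RNAs 8.85e-05 ± 1.29e-05% of the counts. None of the 171 transfer RNA features had a count in any library. Replicate 1 stood above the other libraries in ribosomal RNA, with a share of 1.42%, and in mitochondrial RNA, with 0.00122%, against 0.000497% and 0.000592% in replicates 2 and 3.

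Among the ribosomal RNAs, the 28S features SPRRNA.47 and SPRRNA.48 held equal fractional counts in each library, with 3576, 2335 and 2684 CPM, and SPRRNA.49 had 3593, 2346 and 2695 CPM. The features are copies of a repeated gene, so they are not independent measurements. The 18S feature SPRRNA.43 had 812, 509 and 572 CPM. Among the SPSNORNA identifiers the most counts fell on snoU14 (SPSNORNA.21), which takes part in 18S ribosomal RNA maturation, with 21.2 ± 1.79 CPM. The small nucleolar RNA snR61, which has an SPNCRNA identifier, averaged 29.7 CPM.

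The counts were concentrated in few features. The 10 most abundant held 8.29 ± 0.32% of all counts, the 100 most abundant 30.9 ± 0.648% and the 1000 most abundant 74.9 ± 0.516%. The 278 most abundant features together reached 50% of the counts and 4029 reached 99%. By level, 193 features had at least 1000 CPM, 1708 had 100 to 1000 CPM, 2495 had 10 to 100 CPM and 1052 had 1 to 10 CPM, whereas 533 had 0.1 to 1 CPM and 159 less than 0.1 CPM with at least 1 count.

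**Figure D1:**
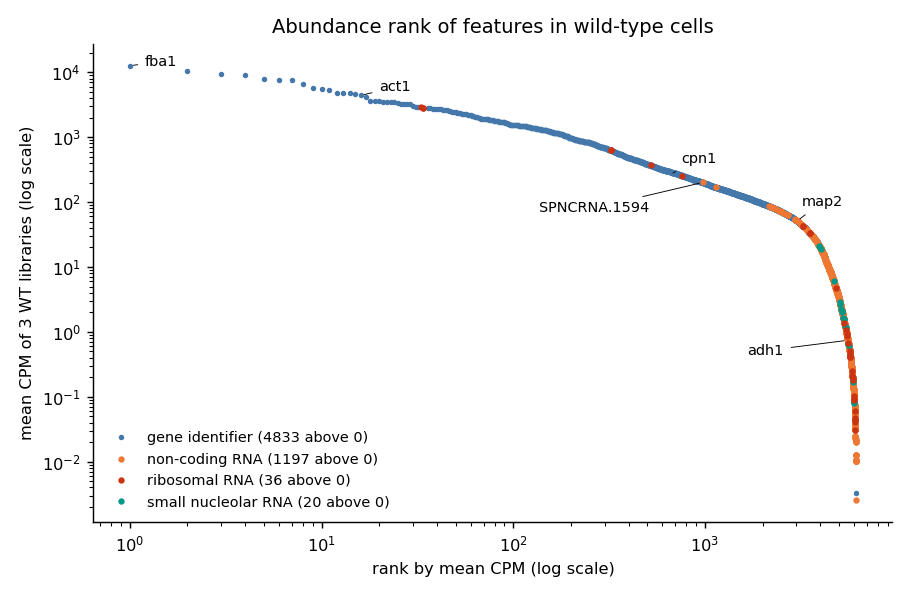
Mean CPM over the 3 wild-type libraries against the rank of each feature by mean CPM, both on log scales, for gene identifiers, non-coding RNAs, ribosomal RNAs and small nucleolar RNAs above 0. Gene identifiers fill the highest ranks from fba1 at 12637 CPM downward, and the first non-coding RNA of the SPNCRNA class, SPNCRNA.1594, stands at rank 973.

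At the top of the list stood an enzyme of glycolysis. The aldolase gene fba1 had 12067, 12619 and 13225 CPM in replicates 1, 2 and 3, which was 1.26 ± 0.0579% of all counts and the highest level per kb as well (9880 ± 453 CPM per kb). It was followed by tdh1 (glyceraldehyde-3-phosphate dehydrogenase) with 9981, 10371 and 11590 CPM and by tef103, 1 of 3 genes for the translation elongation factor EF-1 alpha, with 9186, 9415 and 9772 CPM. Next came pdc101 (pyruvate decarboxylase, the first step of ethanol fermentation) at 9145 ± 212 CPM, eno101 (enolase) at 7806 ± 468 CPM and tef101 (EF-1 alpha) at 7724 ± 300 CPM. The elongation factor eEF3 gene tef3 averaged 7574 ± 154 CPM and sks2, an Hsp70 chaperone that sits on the ribosome, 6542 ± 60.1 CPM. In fba1, tdh1 and eno101 replicate 3 was the highest and replicate 1 the lowest.

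The rest of the 20 most abundant features belong to the same few roles. They include pyk1 (pyruvate kinase, 5825 ± 194 CPM), pgk1 (phosphoglycerate kinase, 5549 ± 194 CPM), tpi1 (triosephosphate isomerase, 4810 ± 189 CPM) and gpm1 (phosphoglycerate mutase, 4640 ± 177 CPM) in glycolysis. The ribosomal protein genes rps2, rpl8, rps3 and rpl402 and the helicase gene tif1 (translation initiation factor eIF4A) ranked 14, 17, 18, 19 and 20. Outside sugar breakdown and translation stood met26 (homocysteine methyltransferase, 5292 ± 111 CPM), pma1 (the proton pump of the plasma membrane, 4783 ± 160 CPM) and act1 (actin, 4409 ± 20.5 CPM). The order by CPM is not that per kb: tef3, met26 and pma1, at ranks 7, 11 and 13 by CPM, were at ranks 81, 99 and 157 by CPM per kb.

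Ribosomal protein genes held the largest share of any list examined. The 136 genes of cytosolic ribosomal proteins took 17.6%, 17.4% and 18.3% of the counts in replicates 1, 2 and 3. Their median was 2029, 1996 and 2125 CPM per kb, against 36.7, 36.8 and 35.4 CPM per kb over all 5106 protein-coding genes. Of the 136, 113 lay above the median of all protein-coding genes, and 21 had no count in any library, each of them wholly under features on the opposite strand. Among the 108 members with at most 25% of their length under such features, the median was 2341 ± 79.2 CPM per kb, the interquartile range ran from 1601 to 3006 CPM per kb, and the lowest was rpl3002 at 229 ± 4.71 CPM per kb. The highest was rps13 (protein uS15), with 5414, 5461 and 5702 CPM per kb. Genes of the large and the small subunit had medians of 2306 ± 68.0 CPM per kb (65 genes) and 2368 ± 77.2 CPM per kb (43 genes). The small subunit's median was the higher in each library, with 2331, 2317 and 2457 CPM per kb, and the large subunit's was 2273, 2261 and 2384 CPM per kb.

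Most fission yeast ribosomal proteins are encoded by a pair of genes, and in some pairs the levels of the copies were far apart. Of 50 pairs, 30 had both copies under at most 25% of opposite-strand overlap, and in these the higher copy exceeded the lower by a median factor of 1.66 in CPM per kb. The higher copy was picked by these same levels, so no factor can lie below 1. The widest gap was in the pair of the large-subunit protein L34: rpl3401 had 4585, 4461 and 4692 CPM per kb and rpl3402 had 357, 354 and 328 CPM per kb, a ratio of 13.2. A ratio of 12.2 separated rpl3001 from rpl3002, and a ratio of 3.96 separated rps2201 (2934 ± 68.4 CPM per kb) from rps2202 (741 ± 11.5 CPM per kb). These 3 pairs were the only ones of the 30 with a ratio over 3. The libraries of the copies did not overlap in them, but this was also so in pairs with a small ratio. In the pair with a ratio of 1.08, rpl1201 had 2655, 2601 and 2714 CPM per kb and rpl1202 had 2456, 2406 and 2514 CPM per kb. Such separation therefore does not set the 3 pairs apart, and it was not counted over all 30 pairs. At the other end, rpl3201 and rpl3202 had 2038 ± 52.8 and 2007 ± 80.3 CPM per kb, with rpl3202 the higher in replicate 3 and rpl3201 in the others, and 12 of the 30 pairs had a ratio below 1.5. In 9 of the 30 pairs a copy carried fractional counts, among them rps2201 and rps2202, and the split of counts between such near-identical copies is uncertain.

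The promoters of these genes carry a known element. HomolD, CAGTCACA on either strand, is the box that stands in for TATA at most fission yeast ribosomal protein genes, and HomolE is a neighbouring box that here was searched by its start, ACCCTACC. The stretches shown are the 90 bases before the annotated start of the gene in RefSeq (ASM294v3), chosen because these genes are among the most abundant and do or do not hold the element; HomolD and the start of HomolE are in capitals, on whichever strand they lie.
rps2: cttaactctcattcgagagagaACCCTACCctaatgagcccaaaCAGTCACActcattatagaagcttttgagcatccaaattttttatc
rpl8: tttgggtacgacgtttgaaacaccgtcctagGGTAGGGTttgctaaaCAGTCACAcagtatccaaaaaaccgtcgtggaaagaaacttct
rpl35: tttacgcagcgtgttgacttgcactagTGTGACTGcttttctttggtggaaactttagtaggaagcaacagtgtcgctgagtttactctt
tef101: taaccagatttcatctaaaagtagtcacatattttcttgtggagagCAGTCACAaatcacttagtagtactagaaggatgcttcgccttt
tef103: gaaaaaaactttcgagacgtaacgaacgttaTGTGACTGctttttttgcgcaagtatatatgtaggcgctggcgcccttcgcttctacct
tpi1: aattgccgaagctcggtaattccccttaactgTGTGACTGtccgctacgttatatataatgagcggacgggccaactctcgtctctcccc
These 6 genes averaged 5286 ± 68.5 (rps2), 4694 ± 114 (rpl8), 4190 ± 104 (rpl35), 4945 ± 192 (tef101), 6226 ± 194 (tef103) and 5026 ± 197 (tpi1) CPM per kb.

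HomolD was found in 87 of the 136 ribosomal protein promoters (64.0%), against 137 of all 5105 protein-coding promoters (2.68%), in windows of 300 bases that run from 250 before to 50 after the annotated start. In the 87, it lay a median of 52 bases before the start, and in 81 of them it lay 40 to 70 bases before it. The start of HomolE was found in 41 of 136 ribosomal protein promoters (30.1%), against 1.63% of all, with a median position 70 bases before the start. Among translation factors 5 of 15 promoters held HomolD, and tpi1 was the only 1 of the 19 promoters of glycolysis and fermentation that did. The most abundant genes of all, fba1 and tdh1, hold neither box in the same stretch. In the promoter of tdh1, TATAAA is in capitals, and in that of fba1 these letters are not in the stretch.
tdh1: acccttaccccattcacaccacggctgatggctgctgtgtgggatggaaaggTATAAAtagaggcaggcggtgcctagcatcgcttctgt
fba1: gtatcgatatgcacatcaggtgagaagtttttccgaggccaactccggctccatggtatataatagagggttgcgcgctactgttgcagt
TATAAA on either strand stood in 38 of 136 ribosomal protein promoters (27.9%), against 48.1% of all promoters, and in 14 of the 17 promoters of the proteasome 19S list (82.4%).

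To set level against sequence, the protein-coding genes with a promoter window and at most 25% opposite-strand overlap were divided into deciles by CPM per kb, which used the counts themselves. The highest decile, from 319 to 9880 CPM per kb, held 56.9% of the CPM of these genes, and the lowest decile held 0.495%. HomolD stood in 89 of 363 promoters of the highest decile (24.5%), against 21 of 3261 in the other deciles (0.644%). With ribosomal protein genes left out, the share in the highest decile was 18 of 256 (7.03%). Outside ribosomal protein genes, the 38 genes with HomolD had a median of 210 CPM per kb, with an interquartile range from 54.5 to 1130, and the 3478 genes without it a median of 50.2 CPM per kb. Among ribosomal protein genes the medians were 2480 CPM per kb with the box (72 genes) and 2077 CPM per kb without it (36 genes), with interquartile ranges that overlap. These are descriptions across genes, which are not independent replicates.

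Genes of the highest decile were also short. Their median coding length was 789 bases, against 1528.5 bases in the third decile from the bottom and 999 in the lowest. The share of genes with an intron was 43.5% in the highest decile, 57.5% in the decile below it and 28.7% in the lowest. The highest decile further differed in codon use. CGU made up 65.1% of its arginine codons, against 29.8% in the other deciles, and AAG 65.7% of its lysine codons, against 36.0%. GGU made up 63.7% of the glycine codons of the highest decile, against 41.0%, whereas AUA made up 4.78% of its isoleucine codons, against 23.1%. Without the ribosomal protein genes these shares in the highest decile were 63.4% for CGU, 61.0% for AAG, 63.0% for GGU and 5.36% for AUA. The GC content of the coding sequence had a median of 45.4% in the highest decile and 38.1% in the lowest.

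**Figure D2:**
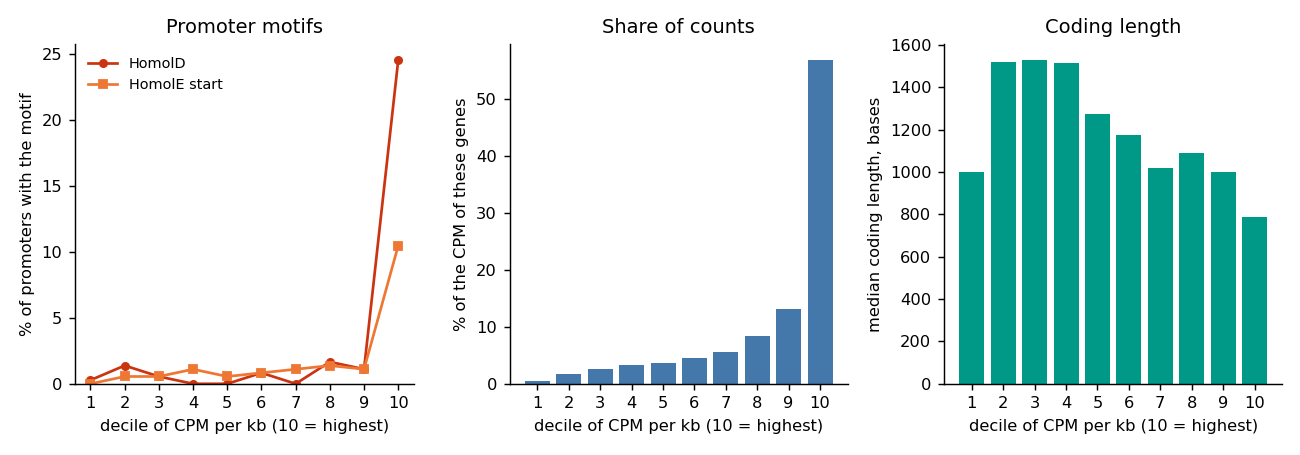
Left, the share of promoters with HomolD and with the start of HomolE; middle, the share of the CPM of these genes; right, the median coding length in bases, all by decile of CPM per kb among protein-coding genes with at most 25% opposite-strand overlap, with 10 the highest. HomolD reaches 24.5% in the highest decile and at most 1.66% in any other.

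Translation factors stood close below the ribosomal proteins. The 15 genes took 4.8 ± 0.105% of the counts, with a median of 1304 ± 12.0 CPM per kb. Besides tef103 and tef101, the highest were tef5 (the subunit of EF-1 that exchanges its nucleotide, 3087 ± 69.1 CPM per kb) and tif51 (eIF5A, 2640 ± 40.8 CPM per kb). The termination factor gene sup35 (eRF3) averaged 362 ± 3.20 CPM per kb, and its partner erf1 (eRF1) 15.4 ± 1.04 CPM per kb, with 93.2% of erf1 under features on the opposite strand.

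Glycolysis and fermentation took 6.75 ± 0.29% of the counts through 19 genes, with 6.51%, 6.67% and 7.07% in replicates 1, 2 and 3, but the steps and their gene copies were far apart. The main genes of the lower part of glycolysis, from fba1 to pyk1, lay between 3014 and 9880 CPM per kb. The upper steps were lower: the hexokinase genes hxk2 and hxk1 averaged 817 ± 26.2 and 259 ± 2.34 CPM per kb, pgi1 (glucose-6-phosphate isomerase) 744 ± 0.689 CPM per kb and pfk1 (phosphofructokinase) 709 ± 14.3 CPM per kb. For some enzymes with several genes the copies were far apart. The pyruvate decarboxylase gene pdc101 averaged 4857 ± 112 CPM per kb, against 14.1 ± 0.814 for pdc201 and 1.68 ± 0.181 for pdc102, while pdc202 had no count and lies wholly under opposite-strand features. The enolase gene eno101 averaged 5358 ± 321 CPM per kb, against 0.947 ± 0.337 for eno102, of which 79.2% lies under opposite-strand features.

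The alcohol dehydrogenase gene adh1, known as the main gene for the last step of fermentation, was assigned few counts. It had 25, 22 and 19 counts in replicates 1, 2 and 3, a level of 0.465 ± 0.117 CPM per kb, whereas the other alcohol dehydrogenase gene of the list, adh4, had 200, 197 and 205 CPM per kb. No counted feature with a place in the reference annotation overlaps adh1 on either strand. A total of 422 counted features have no place there, so an overlap with 1 of those was not tested. The few counts of adh1 therefore cannot be read as a low level of its transcript.

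Of the 8 hexose transporter genes, ght8 was the highest, with 645, 628 and 639 CPM per kb, followed by ght5 (the high-affinity glucose transporter) with 89.6, 107 and 112 CPM per kb and ght2 with 56.3 ± 1.69 CPM per kb. The transporters ght3 and ght7 averaged 1.56 ± 0.543 and 1.26 ± 0.227 CPM per kb. The ght6 gene had no count and lies wholly under opposite-strand features. Genes of respiration were intermediate: the 12 genes of the tricarboxylic acid cycle had a median of 195 ± 1.31 CPM per kb, led by sdh1 (succinate dehydrogenase, 515 ± 7.45), and the 12 nuclear genes of the ATP synthase a median of 211 ± 4.66 CPM per kb, led by atp2 (the beta subunit, 912 ± 12.1).

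**Figure D3:**
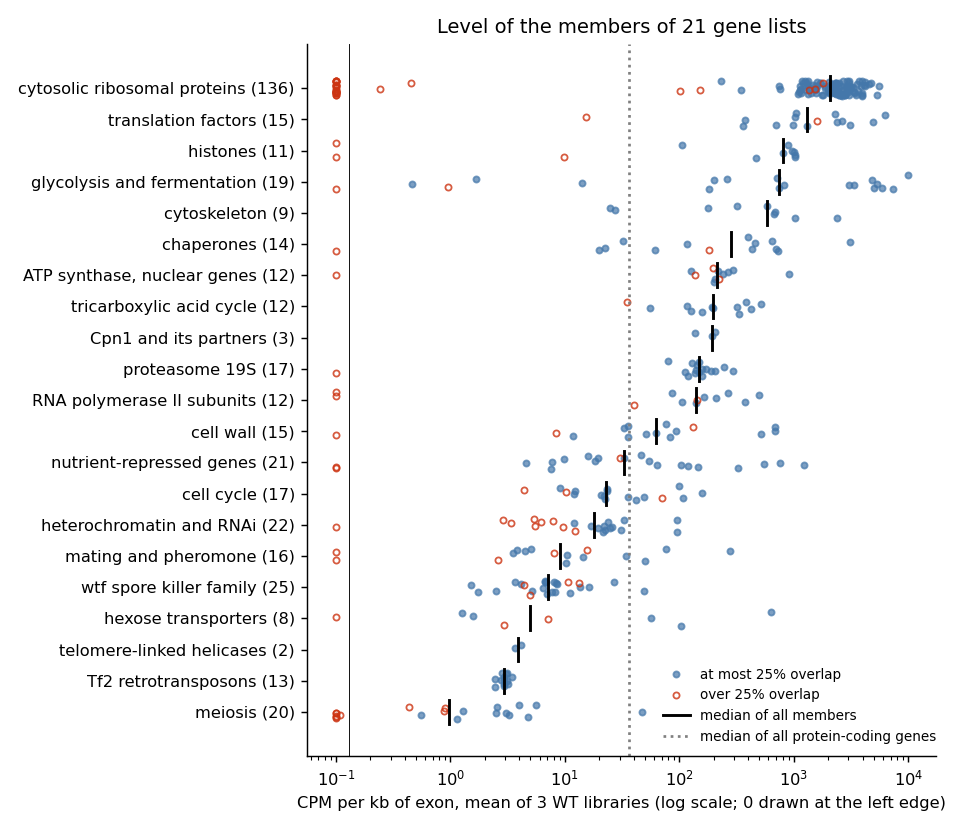
CPM per kb of exon (log scale, mean of 3 wild-type libraries) of the members of the 21 gene lists, 1 point per gene, with features at 0 at the left edge. Filled points have at most 25% of their length under features on the opposite strand and open points more; the bar is the list's median and the dotted line the median of all protein-coding genes (36.3 CPM per kb). All members at 0 are open points, and the lists run from a median of 2050 CPM per kb in ribosomal proteins to 0.966 in meiosis.

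Structural and housekeeping genes followed. The core histone genes hta2 (H2A), hht2 and hht3 (H3), htb1 (H2B), hht1 (H3) and hhf1 (H4) lay between 808 and 1025 CPM per kb in these polyA-selected libraries, and the H4 copy hhf2 averaged 464 CPM per kb. The histone variants were lower, with pht1 (H2A.Z) at 106 ± 0.218 CPM per kb and cnp1, the centromeric H3, at 9.87 ± 0.912 CPM per kb, of which 56.1% lies under opposite-strand features. The copies hta1 and hhf3 had no count and are wholly covered. AACCCT, the box known from fission yeast histone promoters, stood on either strand in 9 of 11 histone promoters (81.8%), against 9.72% of all promoters; this motif was added after the levels had been seen. The hta2 promoter is shown because it holds the box in tandem, with AACCCT and TATAAA in capitals.
hta2: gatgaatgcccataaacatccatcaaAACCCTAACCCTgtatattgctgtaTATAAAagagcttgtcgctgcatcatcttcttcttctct

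In the cytoskeleton, act1 had 2395, 2373 and 2386 CPM per kb, followed by adf1 (cofilin, 1031 ± 24.7), cdc8 (tropomyosin, 688 ± 12.7) and cdc3 (profilin, 673 ± 5.95 CPM per kb). The genes of the cytokinetic ring proteins cdc12 (formin) and myo2 (myosin II) were the lowest of the list, at 27.4 ± 0.703 and 25 ± 1.07 CPM per kb. In some lists the members were close to each other. Over the 16 members of the proteasome 19S list with at most 25% overlap, the upper quartile was 1.31 times the lower. This ratio was 4.61 over all such protein-coding genes and 2.23 over 8 RNA polymerase II subunits. It was also small in lists that are not a single complex, at 1.44 in heterochromatin and RNA interference and 1.65 in the wtf family. The proteasome genes ran from rpn1302 at 79.3 ± 1.62 to dss1 at 291 ± 4.71 CPM per kb. Those 8 RNA polymerase II subunits ran from rpb2 at 86.0 CPM per kb to rpb10 at 493 ± 9.50 CPM per kb, the shared subunits rpb6 and rpb10 being the highest. Of these lists, rpt5, rpb7 and rpb9 had no count, and each is wholly covered by opposite-strand features.

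Among chaperones, sks2 (3092 ± 28.4 CPM per kb) exceeded the mitochondrial Hsp70 gene ssc1 (729 ± 4.32), the cytosolic Hsp70 gene ssa2 (693 ± 17.7) and hsp90 (647 ± 17.3). The disaggregase gene hsp104 averaged 19.7 ± 1.32 and the small heat shock gene hsp16 32.0 ± 8.13 CPM per kb, whereas hsp9, a heat shock gene outside the list, averaged 462 ± 145 CPM per kb. In the cell wall list, the highest were ecm33, psu1 and gas1 at 685 ± 14.9, 685 ± 11.8 and 512 CPM per kb. The pwp1 gene, which the reference annotation names a WD repeat protein, had no count and lies wholly under opposite-strand features.

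The genes of the list named nutrient-repressed were at very different levels in this rich medium. Whether nutrients repress each member, the highest of them (mae2) included, was not tested here. The malic enzyme gene mae2 had 1239, 1200 and 1261 CPM per kb, the acid phosphatase gene pho1 had 774, 780 and 714 CPM per kb and the phosphate transporter gene pho84 averaged 545 ± 34.9 CPM per kb. The copper transporter gene ctr4 averaged 325 ± 11.1 CPM per kb. The iron-regulated transporter gene str3 was the lowest of those above 0 with little overlap, with 5.21, 4.43 and 4.14 CPM per kb. The nmt1 gene, which thiamine represses, and fbp1 (fructose-1,6-bisphosphatase), which glucose represses, had no count, but both lie wholly under opposite-strand features.

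The cell cycle list had a median of 23.0 ± 0.621 CPM per kb, and 6 of its 17 genes lay above the median of all protein-coding genes. The highest were cdc13 (the mitotic cyclin, 159 ± 5.98 CPM per kb), cdc22 (ribonucleotide reductase, 108 ± 3.06) and suc1 (99.7 ± 2.32), and mik1 (an inhibitory kinase) had 9.24, 9.93 and 7.77 CPM per kb. In cultures of mixed stages, fewer cells of a stage and less RNA per cell cannot be told apart. Factors of heterochromatin and RNA interference had a median of 18.1 ± 0.785 CPM per kb, and 2 of 22 exceeded the median of all protein-coding genes. These were swi6 (the HP1 protein), with 97.6, 98.8 and 91.2 CPM per kb, and mkt1 (95.4 ± 0.501 CPM per kb). The Argonaute gene ago1 averaged 26 ± 1.2 CPM per kb, and the methyltransferase gene clr4 5.38 ± 0.199 CPM per kb, with 51.3% of clr4 under opposite-strand features. The caprin gene cpn1 and its partners nxt3 and ubp3 were close to each other, at 192 ± 4.86, 205 ± 2.09 and 137 ± 3.12 CPM per kb.

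The meiosis list had the lowest median of the 21 lists over all members, 0.966 ± 0.0949 CPM per kb, and of its 20 genes 5 had no count, all wholly covered by opposite-strand features. Among the 11 members with at most 25% overlap the median was 3.00 ± 0.168 CPM per kb, close to the 2.93 ± 0.169 CPM per kb of the Tf2 retrotransposons. The highest was spo15, which encodes a spindle pole body protein used in mitosis as well, at 46.7 ± 1.22 CPM per kb, and no other exceeded 5.54 CPM per kb. The meiotic regulator mei2 averaged 4.74 ± 0.303 and mei3 0.557 ± 0.183 CPM per kb. In the mating list, with a median of 9.15 ± 0.341 CPM per kb, the protease gene sxa1 stood apart with 278, 278 and 282 CPM per kb, whereas ste11, the transcription factor of mating, averaged 5.05 ± 0.55 CPM per kb.

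Repeated elements were also low. The 13 Tf2 retrotransposons lay between 2.46 and 3.43 CPM per kb, and all 13 held fractional counts, so that single elements cannot be told apart. The subtelomeric helicase genes tlh1 and tlh2 averaged 3.63 ± 0.303 and 4.10 ± 0.387 CPM per kb. Of the 25 wtf genes, a family that includes spore killers, wtf14 was the highest with 50.7, 48.7 and 47.3 CPM per kb, and the family's median was 7.16 ± 0.155 CPM per kb.

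Of the 1535 features of the SPNCRNA class, 1197 had a count, 178 reached 10 CPM and 2 reached 100 CPM. SPNCRNA.1594 had 195, 195 and 212 CPM and SPNCRNA.608 averaged 168 ± 10.4 CPM. Both overlap features on the opposite strand, over 60.8% and 63.9% of their length, and carry fractional counts. The most abundant without such overlap or fractions was SPNCRNA.1443, with 87.9, 86.6 and 87.2 CPM. Of those with a known role, the telomerase RNA gene ter1 averaged 15.1 ± 1.69 CPM and rse1, annotated as a repressor of ste11, had 47.0, 48.6 and 47.6 CPM.

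A total of 1128 features (15.5%) had no count in any of the 3 libraries. They were 338 of 1535 SPNCRNA features, 326 of 5159 gene identifiers (6.32%), 231 of 254 features with ENSRNA identifiers (90.9%), all 171 transfer RNAs, 33 of 53 small nucleolar RNAs, 14 of 36 mitochondrial features, 13 of 49 ribosomal RNAs and 2 of 7 small nuclear RNAs. A further 41 features were counted in only 1 of the libraries and 56 in only 2. Among protein-coding genes 316 had no count, and of these 270 lie wholly under counted features on the opposite strand.

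Level followed this overlap. In protein-coding genes the median was 52.0 CPM per kb without overlap (2422 genes), 53.9 with up to 25% (1203 genes), 25.6 with 25 to 50% (376 genes), 16.6 with 50 to 75% (291 genes), 7.01 with 75 to 90% (247 genes), 2.54 with 90 to under 100% (229 genes) and 0 with 100% (338 genes). The share with no count was 79.9% of the wholly covered genes and 0.950% of the genes without overlap. SPNCRNA features showed the same at full coverage, with 163 of 178 at 0, against 50 of 385 without overlap. No source used here gives the strand setting of the counting or its treatment of reads that fall in several features, and their part in these zeros was not tested. A count of 0 in a wholly covered gene cannot be read as absence of its transcript.

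**Figure D4:**
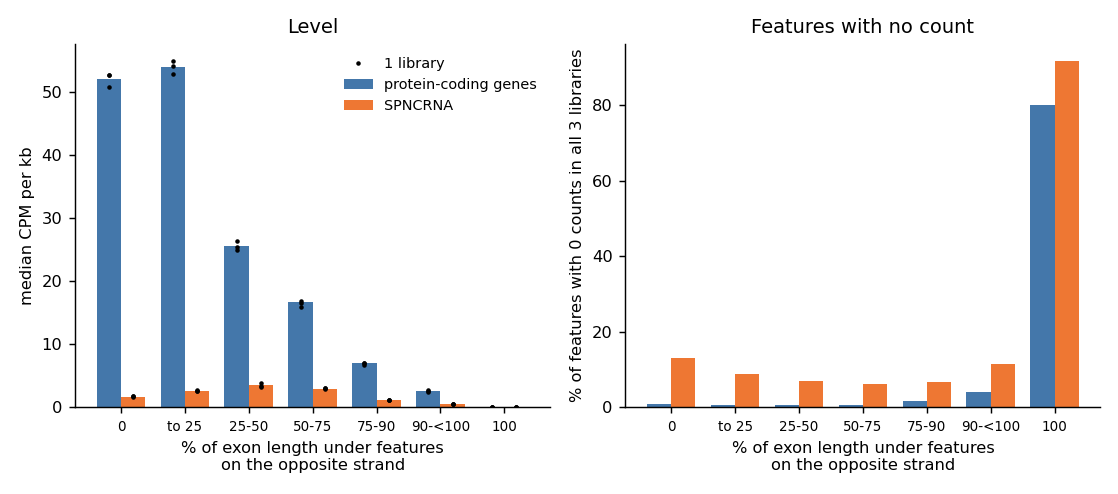
Left, the median CPM per kb (bars, from the mean of 3 libraries; points, each library) and, right, the percentage of features with no count in all 3 libraries, by the percentage of exon length under counted features on the opposite strand. Protein-coding genes fall from 52.0 CPM per kb without overlap to 0 at full coverage, where 79.9% have no count.

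Only 23 protein-coding genes without any such overlap had no count. They include ura4, the meiotic genes spn5 (a septin of sporulation) and rec6 (a recombination protein) and the uncharacterised SPCC417.12 and SPCC18.20. They also include genes with a role in growing cells: mob1 (the partner of the Sid2 kinase in septation), sap114 (a splicing factor of the U2 particle), spc34 (a subunit of the DASH complex at kinetochores), mzt1 (a partner of gamma-tubulin) and ura6 (uridylate kinase). These were named after their values had been seen, and mzt1 and SPCC18.20 share part of their length with features on their own strand. Overlap with the 422 features that have no place in the reference annotation was not tested.

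The 3 libraries were close to each other. Over 5784 features with a mean of at least 10 counts, the coefficient of variation (CV) of CPM had a median of 4.26%, and 81.1% of features had a CV under 10%. The median CV was 18.6% for features with a mean of 10 to 100 counts and 2.18% above 10000 counts. The CV expected from counting error alone, 100 divided by the square root of the mean count, had medians of 16.5% and 0.680% there. The median of CVs from only 3 libraries tends to lie below such an expected value, so these are not directly comparable. The common biological coefficient of variation was 4.39% as estimated by edgeR with no term but the mean. In pairs of libraries, 2, 3 and 1 of 4990 features with a mean of at least 100 counts differed by over 2-fold between replicates 1 and 2, 1 and 3, and 2 and 3. The counts of each pair differed beyond sampling noise, at a chi-square per degree of freedom of 8.66, 11 and 9.71. The study calls the samples biological replicates.

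The features with the widest spread are given by the library in which they were highest. Of 4990 features with a mean of at least 100 counts, 53 had a CV over 20%. In 19 of these replicate 1 was the highest, 10 of them ribosomal RNAs and 5 SPNCRNA features. Most of the 10 ribosomal RNA features are copies of a repeated gene with fractional counts. They are not independent measurements, so the 10 cannot be read as 10 separate cases. In 18 of the 53 replicate 3 was the highest, 17 of them protein-coding. In 16 replicate 2 was the highest, 9 of them protein-coding and 7 SPNCRNA features. Protein-coding genes were 1698 of 1708 features at 100 to 1000 CPM, 2304 of 2495 at 10 to 100 CPM and 430 of 1052 at 1 to 10 CPM. Their share over the 4990 features was not counted, so the 17 of 18 cannot be read as a trait of replicate 3. SPRRNA.01 had the largest CV, 80.6%, with 81.1, 26.1 and 19.1 CPM in replicates 1, 2 and 3.

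Of the protein-coding genes highest in replicate 3, 6 are given here. The uracil-regulated genes urg1 and urg2 had 41.0, 24.2 and 102 CPM (CV 73.5%) and 52.3, 43.6 and 86.5 CPM (CV 37.3%). The heat shock gene hsp9 had 283, 263 and 452 CPM, the small heat shock gene hsp16 22.3, 24.5 and 35.2 CPM, the metallothionein gene zym1 13.5, 14.1 and 21.4 CPM and the catalase gene ctt1 106, 88.4 and 144 CPM. The catalase gene was named after its values had been seen. The RNase P RNA gene rrk1 was also highest in replicate 3, with 4.27, 4.16 and 6.50 CPM.

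The smallest spread was in pda1 (a subunit of pyruvate dehydrogenase), with 838, 839 and 839 CPM and a CV of 0.0555%, and in dfg501 and mug16, at 0.0694% and 0.0843%. The median that counting error alone would give above 10000 counts, 0.680%, is larger than the CV of pda1. In the count ranges of dfg501 (1000 to 10000) and mug16 (100 to 1000) that median was 1.90% and 5.14%. These 3 genes were picked as the smallest CVs of 4990 features, so the values cannot be read as a stable level. The actin gene act1 had a CV of 0.465% and pgi1 of 0.0927%, whereas the most abundant gene, fba1, had a CV of 4.58%.

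**Figure D5:**
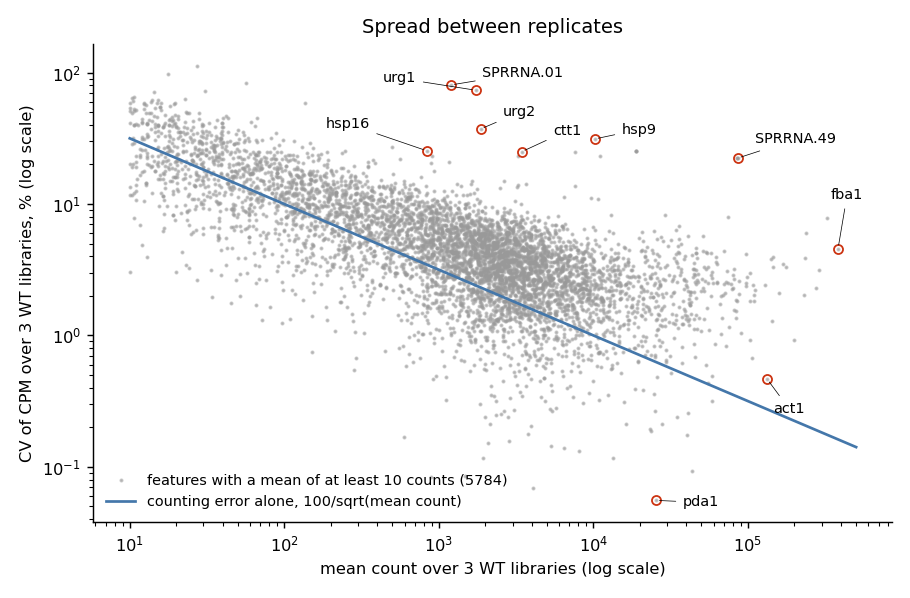
The CV of CPM over the 3 wild-type libraries against the mean count, both on log scales, for 5784 features with a mean of at least 10 counts, with the CV that counting error alone gives as a line. The circled genes are named in the text; SPRRNA.01 and urg1 lie at 80.6% and 73.5% and pda1 at 0.0555%.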

How the data were processed

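The authors trimmed reads with Cutadapt 4.8, aligned them with STAR 2.7.10b to ASM294v2 and counted them per feature with featureCounts. The deposited table holds expected counts, not normalized, which are whole except in 532 of 7268 features (7.32%; tolerance 1e-06). The design had assumed whole counts, so values were rounded for edgeR. The row named other, 0.608% to 0.636% of each library, was left out. Strandedness of the counting is not given in the sources used here.

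CPM was computed on the column sum and divided by the exon length of the gene model in RefSeq ASM294v3, a later build, so no coordinates are given. Of 7268 identifiers, 6846 matched it, without regard to case. Opposite-strand overlap was counted between features of the table. Motifs were searched on both strands. Values were computed in Python 3.11.15 with pandas 2.3.3; edgeR 4.0.16 and DESeq2 1.42.0 ran in R 4.3.3. Spread estimates were tested on simulated data. There is 1 group, so no test between groups was made. Intervals for counts of 0 cover counting error only.

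Features named are the 20 highest by CPM and by CPM per kb, the 5 highest of each class, the highest 4 and lowest 2 of each list, the 10 with the largest and smallest CV among those with a mean of at least 100 counts, genotype genes and those of printed sequences; others, the mating-type genes included, were chosen after their values were seen. The members and the 21 lists were chosen with earlier results of these data known. Alternatives were each library left out, the row named other included, rounding, other scalings, other filters, and overlap-free members, plus overlap-free length, which was chosen after seeing the data.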

Additional observations from a re-analysis of the deposited data

Results flagged for a closer look

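The row named other, which belongs to no gene and enters no comparison, held 0.636%, 0.630% and 0.608% of the counts of replicates 1, 2 and 3, above the 3 counts that a count of 0 allows. What it holds is not stated in the sources used here. Groups of 3 libraries were not tested for outlying samples.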

How the results depend on the processing

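Depth limits features with low counts: the median CV was 18.6% over the 794 features with a mean of 10 to 100 counts. The share of gene identifiers, 98.1%, was 97.5% with the row named other included and 98.5% per kb, and 98.0% to 98.3% with 1 library left out. The share of counts of the 100 most abundant features, 30.9%, was 30.5% to 31.1% with 1 library left out. The 100 highest by CPM per kb held 40.5% of the summed CPM per kb, which is another measure and not a share of counts. Features with no count numbered 1128, against 1738 under 1 CPM in every library, 283 among those without overlap on the opposite strand and 1135 to 1147 with 1 library left out. The median CV of 4.26% was 3.82% with TMM. It was 2.75% to 4.07% with 1 library left out and lowest, 2.75%, without replicate 3. A CV over a pair of libraries tends to have a lower median than over all 3, so these values are not directly comparable with 4.26%. The median log2 difference in CPM was 0.0481 for replicate 1 minus 3 and 0.0508 for replicate 2 minus 3, against -0.00386 for replicate 1 minus 2. The median of ribosomal protein genes, 1282 CPM, was 2050 CPM per kb, 1446 CPM over members without overlap, 2448 CPM per kb of overlap-free length (an alternative chosen after seeing the data) and 1262 to 1297 CPM with 1 library left out. Of the values under alternatives, 9 of the main results moved beyond the spread between replicates (for a count, beyond 1.5 times) and 28 did not, and of the other results 60 moved and 127 did not. Some alternatives change the unit or the set, so a move under them cannot be read as instability. In CPM per kb in place of CPM, none of the 21 list medians stayed within that spread. The features with no count were likewise set against their own overlap-free part. Rounding and TMM changed none of the 21 list medians beyond that spread. With overlap-free members only 4 of the 21 stayed within that spread, and 6 moved by over 1.5 times. No paired analysis was possible because only wild-type libraries were analysed. Apart from these changes of unit or set, the causes of the shifts were not tested.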

Other observations

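By chromosome, wild-type counts were split 43.2% to 43.4% on chromosome I, 38.1% to 38.4% on chromosome II and 18.1% to 18.6% on chromosome III in the 3 libraries. Among protein-coding genes with at most 25% opposite-strand overlap the medians were 49.8 CPM per kb on chromosome I (1647 genes), 58.4 on II (1315 genes) and 48.3 on III (663 genes). No test was made across genes, which are not independent replicates.

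The heterochromatin gene clr3 (a histone deacetylase) and the mitochondrial chaperonin gene hsp10 had no count in any library and are wholly covered by opposite-strand features, so the levels of complexes that hold them are incomplete here.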
